A study of Rattus norvegicus with 36 samples.

Results

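The genes of the complement system were followed in the lung of rats that received DQ-12, a dust of crystalline silica. They comprised 35 genes, chosen by gene name among the noncontrol probes of the array: 8 of the classical pathway, 4 of the lectin pathway, 3 of the alternative pathway, the central component C3, 7 terminal components, 6 regulators, and 6 receptors. All 35 had a probe among the 25597 gene names of the array, and 34 of them were bright enough to be tested, among 23940 genes tested in all. The gene left out was Mbl2, whose probe exceeded the negative controls on 1 of the 36 arrays.

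Female Sprague Dawley rats, 13 weeks old when instilled, were given 10 mg of DQ-12 per rat into the trachea, or the vehicle alone. Gene expression was measured in the accessory lobe of the lung 1, 30, and 180 days later (D1, D30, and D180), in 6 exposed and 6 vehicle rats at each time, with 1 single-color Agilent array per rat. Values are given as log2 of the background-corrected and quantile-normalized signal, and a change as the difference between group means (log2 FC) with its standard error (SE). The lobe was studied whole, so a change in the number of cells of a type and a change in RNA per cell cannot be told apart.

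Complement is a cascade of plasma proteins that mark surfaces and recruit leukocytes. The classical pathway starts when C1q binds antibody or other ligands and its proteases cleave C4 and C2. The lectin pathway starts from mannose-binding lectins and their proteases, and the alternative pathway amplifies deposited C3 through factor B and factor D. All of them converge on the cleavage of C3 and then C5, after which the terminal components can assemble into a membrane pore, and the liberated fragments act on receptors of phagocytes. The liver makes most of the circulating proteins, and epithelial cells, fibroblasts, and macrophages of the lung make some of them locally.

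Between 61.0 and 80.6% of the spots of an array were well above background, and the median correlation of arrays within a group was 0.973 to 0.981. The labelled tissue matched its markers, in that the mean log2 signal of 6 alveolar type 2 markers was 16.00 to 16.56 and that of 7 hepatocyte markers 2.41 to 3.81, with each of the latter well above background on 1 to 15 of the 36 arrays. Slides and scan dates were shared in part by the groups. At D1 the 6 exposed rats shared a scan date with 1 vehicle rat, and at D180 a single slide held both groups, with 1 rat of each. Differences within that scan date are given beside the D1 results that passed the adjusted p.

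A gene was called where its FC was 2 or more with an adjusted p below 0.05, or by the adjusted p alone where stated (limma, Benjamini-Hochberg adjustment over all genes tested). At D1, 4 of the 34 complement genes were called as higher in exposed rats (2.02% of all genes) and 1 as lower (1.05% of all genes). At D30, 4 were higher (0.915% of all genes) and 0 lower (0.138%). At D180, 13 were higher (2.86% of all genes) and 0 lower (0.773%). By the adjusted p alone, 11, 11, and 19 were higher at the 3 times (7.58, 2.74, and 7.82% of all genes), and 12, 11, and 20 changed in either direction (16.2, 3.98, and 16.8% of all genes). The 1 lower gene at D1 and the 1 at D180 compare with 2063 and 2154 lower genes of the 23940 tested. Across the 34 genes, the median log2 FC was 0.21 on D1, 0.25 on D30, and 0.74 on D180, whereas that of all genes tested was -0.01, -0.02, and -0.03. In 7, 9, and 15 of them, respectively, all 6 exposed rats lay above all 6 vehicle rats (5.25, 1.81, and 3.85% of all genes).

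**Figure D1:**
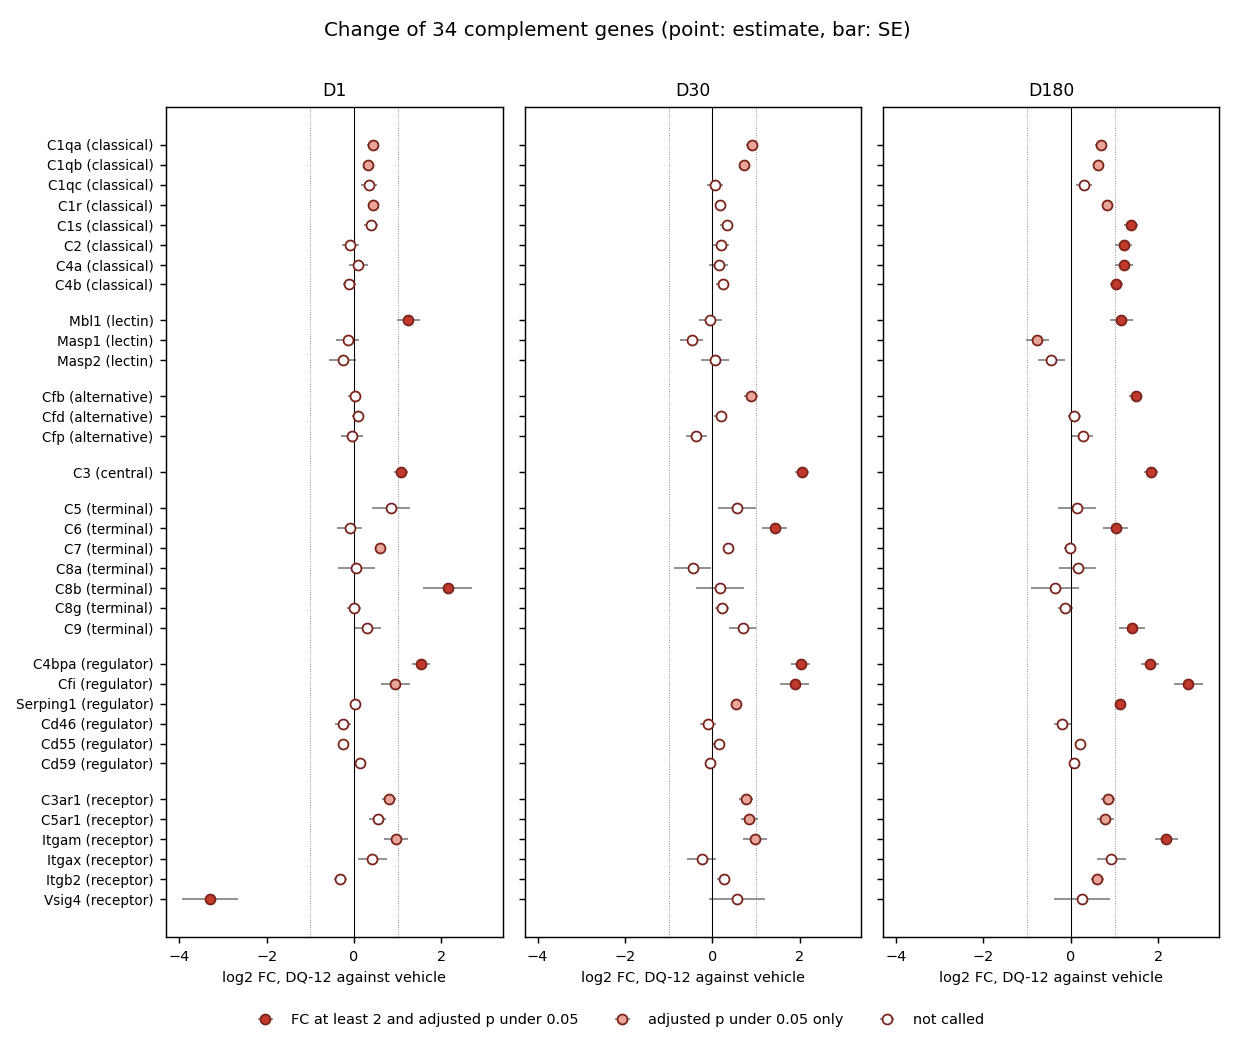
Log2 FC of 34 complement genes in exposed against vehicle rats at D1, D30, and D180, by pathway (point, limma estimate; bar, SE; 6 against 6 rats). Dark points passed both thresholds, light points the adjusted p alone, and open points neither; dotted lines mark a FC of 2, and dark points number 5, 4, and 13.

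Over the time course, 15 genes were called at any time (5.91% of all genes), and 2 of them, C3 and C4bpa, at every time (0.397%). With slide or scan date as a fixed block, the D1 calls of C3 and C4bpa were lost, in fits that rest on 1 vehicle rat. The adjusted p was passed with a higher signal at every time by 7 genes (1.37% of all genes) and at any time in either direction by 23 (27.8%), which left 11 without a call. Of the 34 genes, 25 had a more positive change at D180 than at D1, as did 46.6% of all genes.

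C3, the component on which all pathways converge, was raised throughout. At D1 its log2 signal was 13.60 to 13.98 in vehicle rats (median 13.79) and 14.42 to 15.09 in exposed rats (median 14.90). By D30, vehicle rats spanned 12.95 to 13.37 (median 13.19) and exposed rats 14.76 to 15.72 (median 15.14). By D180, vehicle rats spanned 13.30 to 13.84 (median 13.61) and exposed rats 14.85 to 15.97 (median 15.51). The lowest exposed rat lay above the highest vehicle rat at each time. On the log2 scale the FC was 1.08 (SE 0.16, adjusted p = 8.74e-06) at D1, 2.04 (adjusted p = 1.33e-10) at D30, and 1.83 (adjusted p = 3.31e-10) at D180, which corresponds to FCs of 2.12, 4.12, and 3.56. Within the scan date that held both groups at D1, the difference was 0.96, with 1 vehicle and 6 exposed rats. Within the scan dates of D30 it was 2.01 and 1.98, and within those of D180 it was 1.85 and 2.06.

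C4bpa, the alpha chain of the C4b-binding protein, a soluble inhibitor that helps factor I degrade C4b, was the other gene called at every time. At D1 its log2 signal was 10.63 to 11.25 in vehicle rats (median 10.77) and 11.84 to 12.78 in exposed rats (median 12.42). By D30, vehicle rats spanned 10.54 to 11.41 (median 10.81) and exposed rats 12.47 to 13.53 (median 12.80). By D180, vehicle rats spanned 11.14 to 11.95 (median 11.45) and exposed rats 12.46 to 14.08 (median 13.18). The groups did not overlap at any time. This gave a log2 FC of 1.53 (SE 0.22, adjusted p = 4.93e-06), 2.02 (adjusted p = 1.41e-07), and 1.81 (adjusted p = 1.85e-07) at D1, D30, and D180. Within the mixed scan date at D1 it was 1.12.

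**Figure D2:**
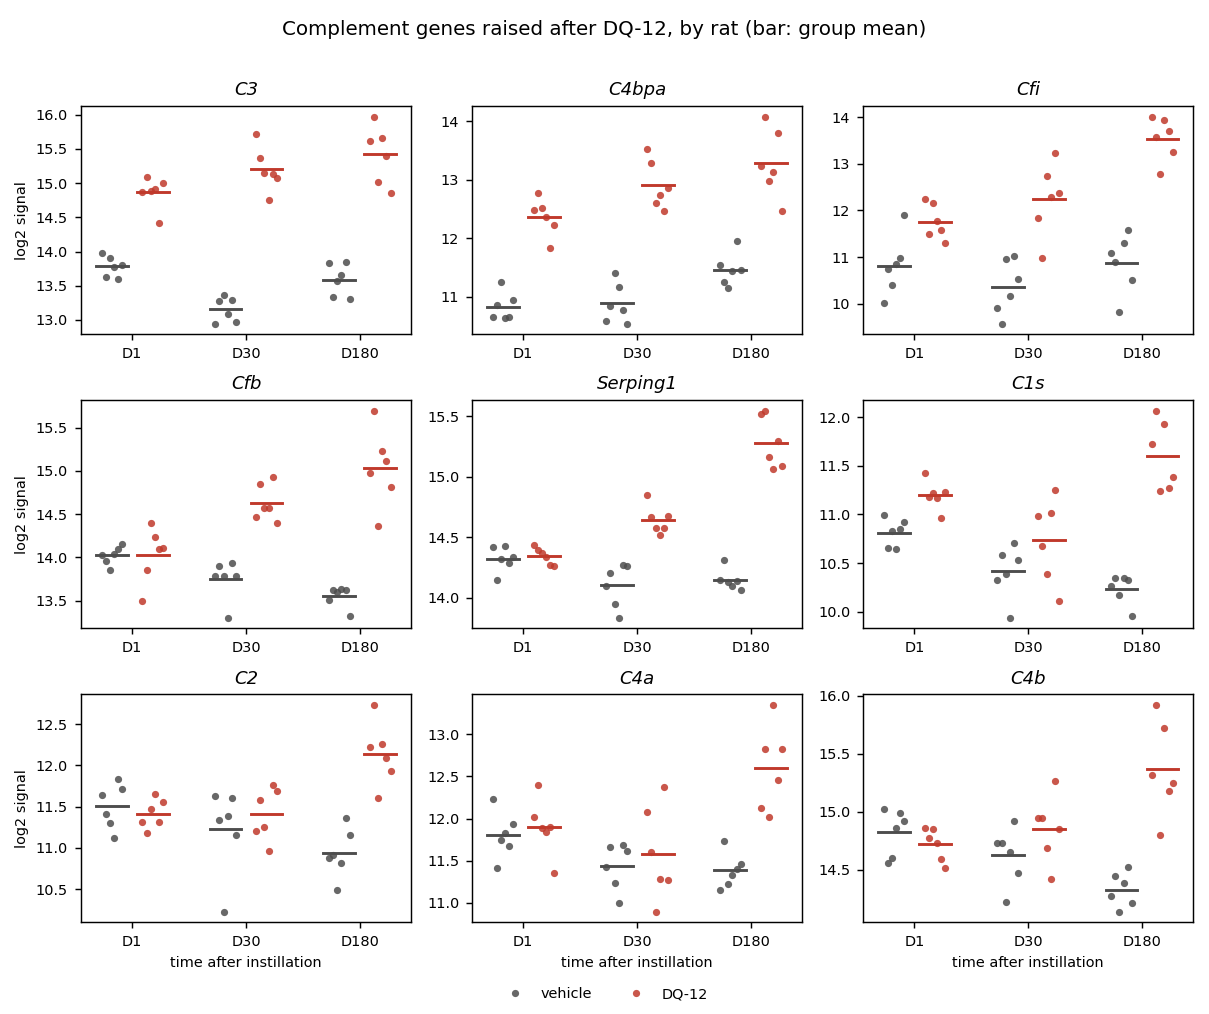
Log2 signal of 9 complement genes in each rat by time after instillation (gray, vehicle; red, DQ-12; bar, group mean; 6 rats per group). C3 and C4bpa were separated at every time, whereas C1s, C2, C4a, and C4b were separated at D180 and not at the earlier times.

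The stretches of 250 bases before the gene starts of C3 and C4bpa are shown because these genes were called at every time (RefSeq, build GRCr8, 5′ to 3′ on the strand of the gene, which is the minus strand for both). C3 lies at chr9:2201340-2201589 and C4bpa at chr13:44663472-44663721. Capitals mark matches to TTNNGNAA on either strand, a short form of the site bound by C/EBP factors.
C3: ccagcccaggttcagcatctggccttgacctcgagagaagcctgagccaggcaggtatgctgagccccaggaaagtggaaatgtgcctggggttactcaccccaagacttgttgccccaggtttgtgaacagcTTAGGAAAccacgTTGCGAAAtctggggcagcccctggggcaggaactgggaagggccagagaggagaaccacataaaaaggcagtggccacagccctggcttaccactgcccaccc
C4bpa: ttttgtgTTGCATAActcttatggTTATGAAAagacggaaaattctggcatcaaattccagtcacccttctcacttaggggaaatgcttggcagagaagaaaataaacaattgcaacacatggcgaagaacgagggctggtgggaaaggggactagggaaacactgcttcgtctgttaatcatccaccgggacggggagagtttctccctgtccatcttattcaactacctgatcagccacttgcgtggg
Each stretch held 2 matches, the last of which ended 96 bases before the start in C3 and 218 bases before it in C4bpa. This motif was present in 12 of the 23 complement genes with a promoter in the table and in 37.2% of all 33469 promoters. TTCNNNGAA, a STAT motif, was present in 4 of the 23 and in 7.67% of all promoters. TGANTCA, an AP-1 motif, was also present in 4 of the 23, against 6.34% of all promoters. The NF-kB motif was present in 1 of the 23 and in 6.33% of all promoters. Neither C3 nor C4bpa held any of the last 3 motifs in this window. A match is a description of these letters and no evidence of binding.

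Of the 8 classical pathway genes, 3 were higher by the adjusted p at D1, 2 at D30, and 7 at D180 (7.58, 2.74, and 7.82% of all genes). None passed both thresholds before D180, when 4 did as higher (2.86% of all genes). These were C1s, a protease of the C1 complex, C2, the protease part of the classical C3 convertase, and C4a and C4b, which encode its other part. Across all 8 genes the median log2 FC was 0.33 on D1, 0.21 on D30, and 0.93 on D180.

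At D180, the log2 signal of C1s was 9.96 to 10.35 in vehicle rats (median 10.30) and 11.25 to 12.07 in exposed rats (median 11.56). That of C2 was 10.49 to 11.36 (median 10.89) and 11.60 to 12.74 (median 12.16). All exposed rats lay above all vehicle rats for both genes. The log2 FC was 1.37 for C1s (SE 0.16, adjusted p = 1.13e-07) and 1.21 for C2 (SE 0.20, adjusted p = 2.66e-05). At D30 the same genes had log2 FCs of 0.32 (95% confidence interval 0.00 to 0.64) and 0.18 (-0.21 to 0.58), and exposed and vehicle rats overlapped. Another probe of C1s gave 1.36 at D180.

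Both C4 genes were higher at D180. C4a had a log2 signal of 11.15 to 11.74 in vehicle rats (median 11.37) and 12.02 to 13.35 in exposed rats (median 12.64), and C4b of 14.14 to 14.52 (median 14.33) and 14.80 to 15.92 (median 15.28). The groups did not overlap for either gene. The change amounted to a log2 FC of 1.22 for C4a (SE 0.22, adjusted p = 8.82e-05) and 1.04 for C4b (SE 0.15, adjusted p = 3.51e-06), and another probe of C4b gave 1.28. At D1 the log2 FCs were 0.10 and -0.11, and at D30 0.14 and 0.23, none of which passed the test. These genes are close copies of each other, and hybridization of either transcript to the other probe was not tested, so that their values may not be separate measurements.

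The stretches before the starts of the C4 genes are printed to show how alike they are (RefSeq, GRCr8, plus strand, chr20:4010107-4010356 for C4a and chr20:4201729-4201978 for C4b). Capitals mark the bases that differ in the best alignment without gaps.
C4a: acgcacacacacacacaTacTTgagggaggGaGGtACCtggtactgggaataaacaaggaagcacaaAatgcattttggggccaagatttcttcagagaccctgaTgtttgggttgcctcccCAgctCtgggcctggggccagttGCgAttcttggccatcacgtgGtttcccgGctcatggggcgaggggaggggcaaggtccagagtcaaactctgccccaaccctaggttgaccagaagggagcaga
C4b: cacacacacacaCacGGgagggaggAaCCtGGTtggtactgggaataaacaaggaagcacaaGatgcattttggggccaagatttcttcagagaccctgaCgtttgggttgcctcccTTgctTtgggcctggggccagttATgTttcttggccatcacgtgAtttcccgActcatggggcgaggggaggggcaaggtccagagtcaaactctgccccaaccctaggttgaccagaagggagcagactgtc
In that alignment, 226 of 245 bases were identical (92.2%), and 19 differed. None of the 4 motifs was found in either stretch.

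The genes of the C1q chains, which form the recognition molecule and are made largely by macrophages, passed the adjusted p without reaching a FC of 2, or did not pass. C1qa was higher by 0.44 at D1 (adjusted p = 0.028), 0.90 at D30 (adjusted p = 7.64e-05), and 0.69 at D180 (adjusted p = 0.000449). C1qb was higher by 0.33 (adjusted p = 0.03), 0.72 (adjusted p = 3.36e-05), and 0.61 (adjusted p = 5.95e-05) on the log2 scale. Exposed rats all lay above vehicle rats at every time for C1qb and at D1 and D30 for C1qa. C1qc did not pass the test, with 0.34 (95% confidence interval -0.04 to 0.72), 0.06 (-0.33 to 0.44), and 0.30 (-0.08 to 0.68). C1r, the other protease of the C1 complex, was higher by 0.43 at D1 (adjusted p = 0.00699) and by 0.82 at D180 (adjusted p = 1.79e-06), and had a log2 FC of 0.18 at D30 (adjusted p = 0.479). Within the mixed scan date at D1, the difference was 0.48 for C1qa, 0.21 for C1qb, and 0.27 for C1r. Leaving out rats in turn ended the D1 result of C1qa in 5 of 12 cases, and that of C1qb in 5 of 12.

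In the lectin pathway, 1 of 3 genes tested was called, as higher at D1 and D180 (2.02 and 2.86% of all genes). Mbl1, which encodes a mannose-binding lectin, was higher at D1 and D180 and not at D30. At D1 its log2 signal was 4.33 to 6.25 in vehicle rats (median 5.77) and 6.33 to 7.12 in exposed rats (median 6.91). By D180, vehicle rats spanned 4.88 to 5.46 (median 5.14) and exposed rats 5.23 to 7.07 (median 6.32). The groups were apart at D1 and overlapped at D180, when 5 of 6 exposed rats exceeded all vehicle rats. On the log2 scale the FC was 1.24 (SE 0.26, adjusted p = 0.00105) at D1, -0.05 (adjusted p = 0.977) at D30, and 1.15 (adjusted p = 0.00163) at D180. Within the mixed scan date at D1 it was 0.80.

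Neither gene of the lectin pathway proteases was called as higher. Masp1 was lower at D180 by the adjusted p alone, at 5.99 to 6.69 in vehicle rats (median 6.59) and 4.92 to 6.42 in exposed rats (median 5.70). Its signal fell by 0.77 on the log2 scale (SE 0.26, adjusted p = 0.0376), with 4 of 6 exposed rats below all vehicle rats. Leaving out rats in turn ended this result in 8 of 12 cases. The 3 other probes of Masp1 gave -0.38, -0.80, and 0.18 and did not pass the test. Masp2 was well above background on 2 of the 36 arrays and had log2 FCs of -0.26, 0.06, and -0.45, which did not pass the test.

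In the alternative pathway, 1 of 3 genes was called, as higher at D180 (2.86% of all genes). Cfb encodes factor B, the protease of the alternative C3 convertase. Its log2 signal was 13.30 to 13.94 in vehicle rats (median 13.79) and 14.40 to 14.94 in exposed rats (median 14.57) at D30, and 13.32 to 13.64 (median 13.61) and 14.36 to 15.70 (median 15.04) at D180. The groups did not overlap at either time. The log2 FC was 0.88 (SE 0.15, adjusted p = 0.00041) at D30, short of a FC of 2, and 1.48 (adjusted p = 1.57e-08) at D180, which is a FC of 2.79. At D1 it was 0.01 (adjusted p = 0.98).

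Cfd, which encodes factor D, the protease that activates factor B, did not pass the test at any time, with log2 FCs of 0.08, 0.19, and 0.08 (95% confidence interval at D180 -0.20 to 0.37). Cfp, which encodes properdin, the stabilizer of the convertase, had log2 FCs of -0.05, -0.37, and 0.27 (95% confidence interval at D180 -0.22 to 0.76), where the first value lacks 1 vehicle rat whose spot was an outlier.

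The 7 terminal genes gave 1 call on D1, 1 on D30, and 2 on D180, all higher (2.02, 0.915, and 2.86% of all genes). None of them was called at every time. C5, the first terminal component and the source of the C5a anaphylatoxin, did not pass the test. Its log2 signal was 6.22 to 10.43 in vehicle rats (median 9.43) and 9.27 to 10.37 in exposed rats (median 9.98) at D1. By D30, vehicle rats spanned 9.13 to 10.63 (median 10.20) and exposed rats 10.13 to 11.28 (median 10.66), and by D180 9.43 to 10.67 (median 10.39) and 9.53 to 11.07 (median 10.29). The groups overlapped at all times. In limma, the log2 FC was 0.84 (SE 0.44, adjusted p = 0.206), 0.56 (adjusted p = 0.616), and 0.14 (adjusted p = 0.885). Without the vehicle rat at 6.22, the value at D1 was 0.26.

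C6, which binds the C5 fragment that starts the pore, was called at D30 and D180. Its log2 signal at D30 was 7.75 to 8.84 in vehicle rats (median 8.23) and 9.06 to 9.91 in exposed rats (median 9.70), with no overlap. By D180, vehicle rats spanned 7.71 to 8.22 (median 8.10) and exposed rats 8.07 to 10.03 (median 9.15), with 5 of 6 exposed rats above all vehicle rats. The change amounted to a log2 FC of -0.10 (adjusted p = 0.865) at D1, 1.42 (SE 0.29, adjusted p = 0.00227) at D30, and 1.02 (adjusted p = 0.0108) at D180. A dimmer probe of C6 gave 0.69, 0.91, and 0.65 and passed the adjusted p at each time, including D1 (adjusted p = 0.0275), so the probes disagree at D1. With scan date as a fixed block C6 did not pass at D180 (0.84, adjusted p = 0.0895), and with slide it passed neither at D30 (1.17, adjusted p = 0.0734) nor at D180 (1.12, adjusted p = 0.531).

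C9, whose product forms the wall of the pore, was called at D180. Its log2 signal was 6.86 to 7.41 in vehicle rats (median 7.04) and 7.59 to 10.10 in exposed rats (median 8.39), with no overlap. The log2 FC was 1.40 (SE 0.31, adjusted p = 0.00109). Its dimmer probe gave 1.08 at D180 and did not pass (adjusted p = 0.0907).

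C8b, a component that anchors the pore, was called at D1 from dim signals. These were 2.05 to 4.49 in vehicle rats (median 3.52) and 3.39 to 8.99 in exposed rats (median 4.82), and 2 and 5 of the 6 arrays, respectively, were well above background. The groups overlapped, with 5 of 6 exposed rats above all vehicle rats. This gave a log2 FC of 2.14 (SE 0.55, adjusted p = 0.00699), which lay between 1.43 and 2.55 when rats were left out in turn. Rats of the mixed scan date differed by 1.77. Like every other D1 call, this call was lost with that block, which rests on 1 vehicle rat.

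C7, another pore component, was higher by 0.60 at D1 (adjusted p = 0.00113) and had log2 FCs of 0.36 at D30 and -0.03 at D180. Within the mixed scan date at D1 it was 0.40, and its dimmer probe gave 0.38 and did not pass (adjusted p = 0.165). C8g did not pass the test at any time (-0.01, 0.22, and -0.12), and C8a was well above background on 1 array.

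**Figure D3:**
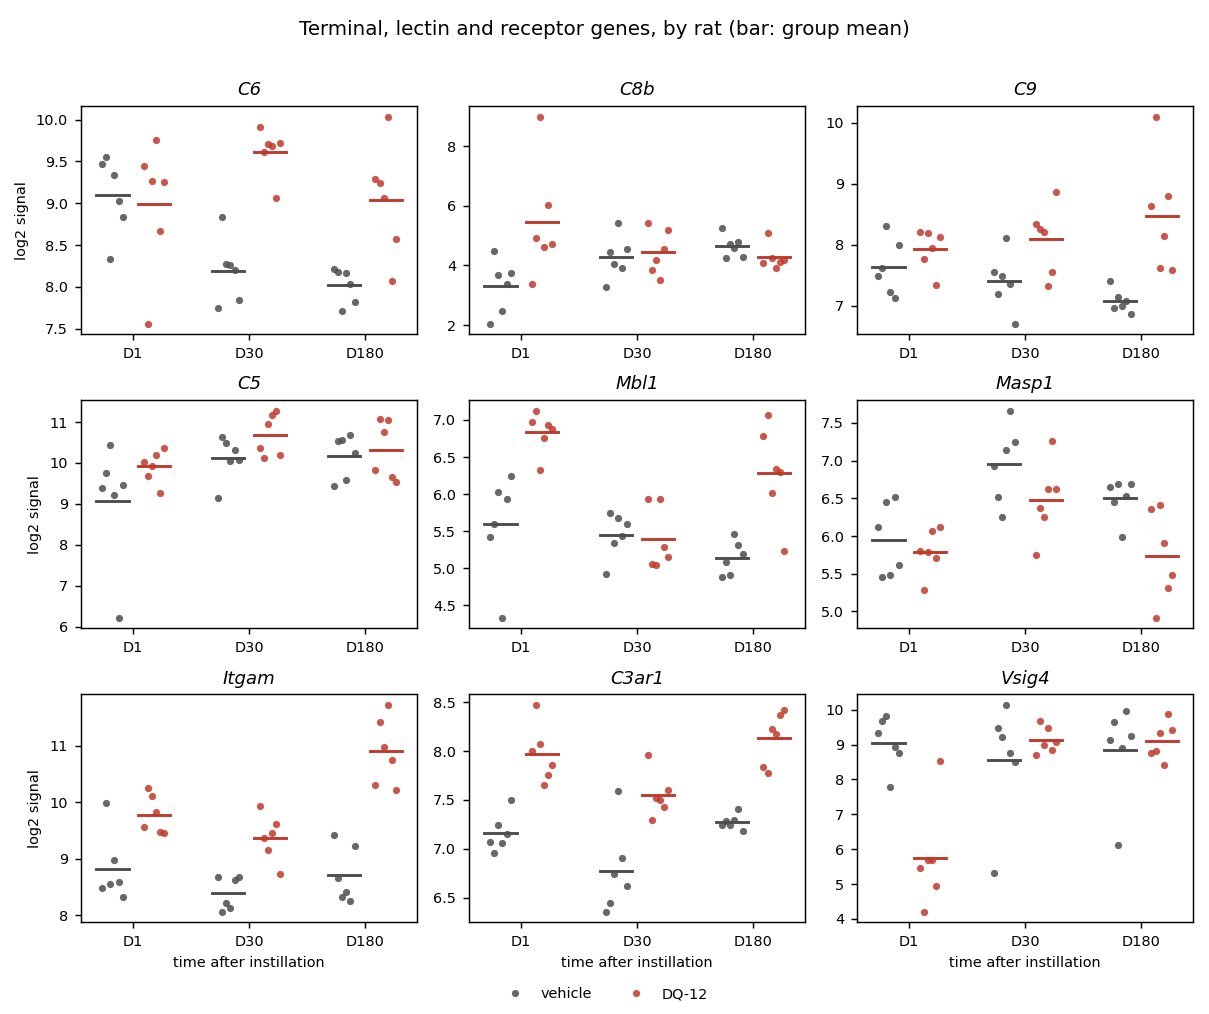
Log2 signal of 9 terminal, lectin pathway, and receptor genes in each rat by time after instillation (gray, vehicle; red, DQ-12; bar, group mean; 6 rats per group). Itgam at D180 and C9 at D180 were separated between groups, whereas Vsig4 was lower at D1 in 5 of 6 exposed rats and overlapped later.

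Among the 6 regulators, the genes of the 3 secreted inhibitors rose and those of the 3 membrane-bound inhibitors did not pass the test at any time. Besides C4bpa, the genes that rose were Cfi and Serping1. Past both thresholds as higher were 1, 2, and 3 regulators at D1, D30, and D180 (2.02, 0.915, and 2.86% of all genes). Cfi encodes factor I, the protease that inactivates C3b and C4b. Its log2 signal was 9.57 to 11.02 in vehicle rats (median 10.35) and 10.97 to 13.22 in exposed rats (median 12.33) at D30, and 9.82 to 11.57 (median 10.98) and 12.78 to 14.01 (median 13.63) at D180. The groups overlapped at D30 by 1 exposed rat and were apart at D180. In limma, the log2 FC was 1.88 (SE 0.33, adjusted p = 0.000449) at D30 and 2.68 (adjusted p = 3.66e-07) at D180, a FC of 6.42. This was the largest among the complement genes at that time by the brightest probe of each, whereas a dimmer probe of Itgam gave 3.34. At D1, when vehicle rats spanned 10.02 to 11.90 and exposed rats 11.31 to 12.24, the log2 FC of Cfi was 0.95 (adjusted p = 0.0473). Leaving out rats in turn ended this call in 10 of 12 cases. Rats of the mixed scan date differed by 1.37.

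Serping1 encodes the C1 inhibitor, which blocks the proteases of the classical and lectin pathways. At D30 its log2 signal was 13.84 to 14.27 in vehicle rats (median 14.15) and 14.52 to 14.85 in exposed rats (median 14.62). By D180, vehicle rats spanned 14.07 to 14.31 (median 14.13) and exposed rats 15.06 to 15.55 (median 15.23). The groups were separated at both times. The log2 FC was 0.02 at D1, 0.54 (SE 0.09, adjusted p = 0.000136) at D30, and 1.13 (adjusted p = 3.01e-11) at D180.

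The membrane-bound regulators protect the cells that carry them. At D180, the log2 FC was -0.19 for Cd46 (95% confidence interval -0.57 to 0.19), 0.21 for Cd55 (-0.04 to 0.46), and 0.08 for Cd59 (-0.18 to 0.33). These intervals exclude a FC of 2 in either direction. The other probes of Cd46 and Cd55 did not pass the test either.

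Of the 6 receptors, 2 were higher by the adjusted p at D1, 3 at D30, and 4 at D180 (7.58, 2.74, and 7.82% of all genes). Itgam, the alpha chain of complement receptor 3 on neutrophils and macrophages, was the receptor gene that passed both thresholds as higher. Its log2 signal was 8.32 to 9.99 in vehicle rats (median 8.57) and 9.45 to 10.25 in exposed rats (median 9.69) at D1, and 8.06 to 8.68 (median 8.42) and 8.72 to 9.93 (median 9.41) at D30. At D180 it was 8.24 to 9.43 in vehicle rats (median 8.54) and 10.23 to 11.73 in exposed rats (median 10.86). All exposed rats lay above all vehicle rats at D30 and D180, and the groups overlapped at D1. On the log2 scale the FC was 0.96 (SE 0.27, adjusted p = 0.0125) at D1, 0.98 (adjusted p = 0.0323) at D30, and 2.19 (adjusted p = 3.2e-07) at D180. A dimmer probe gave 1.80, 0.91, and 3.34 and passed at D180 alone (adjusted p = 0.00916). For the brighter probe, rats of the mixed scan date at D1 differed by 1.22. The D30 result of that probe was lost in 5 of 12 cases when rats were left out in turn.

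C3ar1 and C5ar1 encode the receptors of the C3a and C5a anaphylatoxins. C3ar1 was higher by 0.80 (adjusted p = 0.000512), 0.78 (adjusted p = 0.00255), and 0.85 (adjusted p = 0.000161) at D1, D30, and D180, and C5ar1 by 0.84 at D30 (adjusted p = 0.00849) and 0.79 at D180 (adjusted p = 0.00372). C3ar1 differed by 0.73 within the mixed scan date at D1. When scan date was blocked, neither passed at D30 (adjusted p = 0.123 and 0.169). Of the dimmer probes of C3ar1, one gave 0.67 at D30 and did not pass (adjusted p = 0.0733), and the other gave 0.74 and passed (adjusted p = 0.0285). Itgb2, the beta chain shared by complement receptors 3 and 4, was higher by 0.60 at D180 (adjusted p = 0.00352). Itgax, the alpha chain of complement receptor 4, had a log2 FC of 0.93 at D180 (adjusted p = 0.0504), with all exposed rats above all vehicle rats.

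Vsig4, the complement receptor of the immunoglobulin family on resident macrophages, was the only complement gene past both thresholds as lower at any time. At D1 its log2 signal was 7.79 to 9.81 in vehicle rats (median 9.14) and 4.21 to 8.54 in exposed rats (median 5.58). Of the exposed rats, 5 of 6 lay below all vehicle rats, and the other was at 8.54. Its signal fell by 3.30 on the log2 scale (SE 0.64, adjusted p = 0.000435). Within the mixed scan date the difference was -4.05, against 1 vehicle rat. At D30 and D180 the log2 FC was 0.56 (95% confidence interval -0.75 to 1.87) and 0.26 (-1.04 to 1.57), and the groups overlapped.

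Markers of other cell types moved as well. Of 8 macrophage markers, 0, 3, and 3 were called as higher at D1, D30, and D180 (Cd68, Siglec1, and Marco at the later times), with median log2 FCs over all 8 of -0.00, 0.10, and 0.09. Mertk, of the same list, was lower by the adjusted p at D1 (-0.67, adjusted p = 0.000637) and D180 (-0.41, adjusted p = 0.0343). The mean log2 signal of the list was 9.70 to 10.29 in vehicle rats and 10.42 to 10.84 in exposed rats at D180. Of 7 neutrophil markers, 1, 2, and 4 were called as higher, and their mean log2 signal in vehicle and exposed rats was 7.22 to 7.61 and 7.81 to 8.34 at D1, and 7.28 to 8.05 and 8.37 to 9.10 at D180. Among them, Elane exceeded background clearly on 0 arrays. Of 7 hepatocyte markers, none was called, and their mean log2 signal was 2.41 to 3.67 in vehicle rats and 2.63 to 3.08 in exposed rats at D180. Of 4 alveolar type 1 markers, all 4 were lower by the adjusted p at D180 (median log2 FC -0.45), whereas 3 of 6 alveolar type 2 markers were higher at D30 and at D180 (medians 0.32 and 0.31). Of 3 club cell markers, 2, 0, and 1 were lower by the adjusted p at D1, D30, and D180, and of 3 mesothelial markers 1, 2, and 1 were lower. Of 6 fibroblast markers, 1 was higher at D1 and none passed later. Of all genes, 2.02, 0.915, and 2.86% were called as higher at D1, D30, and D180. By the adjusted p, 7.58, 2.74, and 7.82% were higher, and 2063, 298, and 2154 of 23940 genes were lower. The part of these cell types in the changes of the complement genes was not tested.

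Whether the effect of DQ-12 changed over time was tested with interaction terms of the same model. Between D1 and D30 the change differed for 5 complement genes (2.18% of all genes), which were Cfb, C3, C6, Serping1, and Vsig4, each with the more positive change at D30. Between D30 and D180 it differed for 2 (0.246% of all genes), C1s by 1.05 (SE 0.22, adjusted p = 0.0306) and Serping1 by 0.59 (SE 0.12, adjusted p = 0.0252). This count ranged from 0 to 5 with 1 rat left out. Between D1 and D180 the change differed for 11 (4.55% of all genes), with the more positive change at D180 for 10 of them and at D1 for C7. Among the genes that passed, the largest differences between D1 and D180 were 3.56 for Vsig4, 1.73 for Cfi (SE 0.47, adjusted p = 0.0267), and 1.47 for Cfb (SE 0.22, adjusted p = 9.73e-05). C2, C4a, C4b, and C1s differed by 1.30, 1.12, 1.14, and 0.98. C8b had a difference of -2.50 and did not pass (adjusted p = 0.0595). With scan date as a fixed block, 0 complement genes differed between D1 and D30, 0 between D30 and D180, and 2 between D1 and D180, so that the calls of C1s and Serping1 between D30 and D180 were lost.

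**Figure D4:**
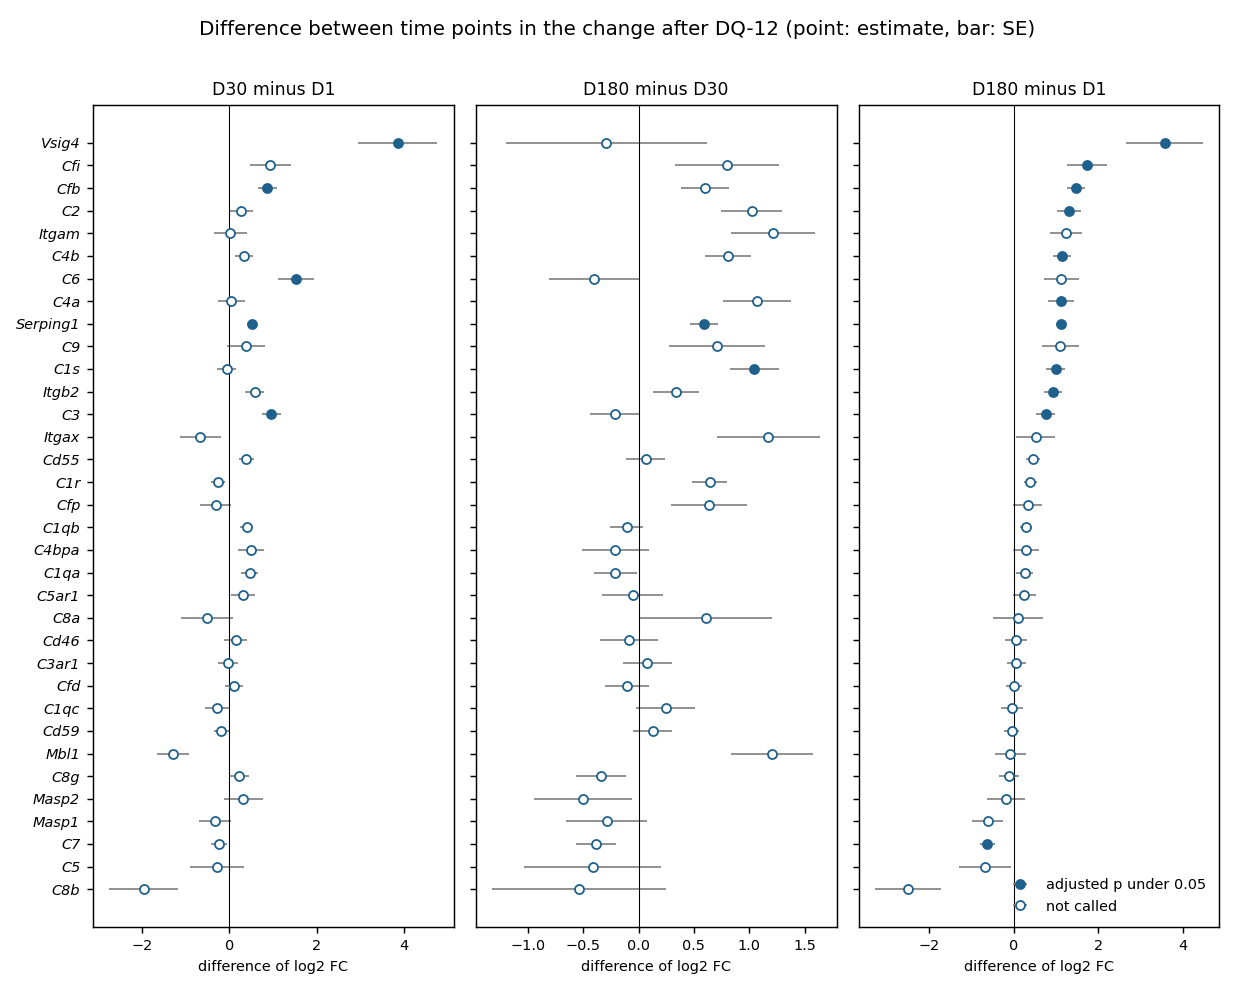
Difference between time points in the log2 FC of 34 complement genes (point, limma estimate; bar, SE; genes ordered by the difference between D180 and D1). Filled points passed the adjusted p and number 5, 2, and 11.

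Several of these genes lie side by side in the genome (RefSeq gene table of GRCr8, used for the order of genes). C2 and Cfb are adjacent, with 0 coding genes between them, and 4 coding genes separate Cfb from C4a and 12 separate C4a from C4b. All of these genes were called as higher at D180, as were 2.86% of all genes. The values of C4a and C4b may not be separate measurements. A role of position in the genome was not tested. C1r and C1s are also adjacent, as are the C1q chain genes, Itgam and Itgax, and C8a and C8b. On these shorter stretches calls differed between neighbors, as for Itgam and Itgax at D180. Their log2 FCs in limma were 2.19 and 0.93, both higher, and Itgax narrowly missed the threshold (adjusted p = 0.0504). The difference between the genes was not tested.

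A further list of 27 genes related to complement was examined, of which 25 were tested. Past both thresholds were 0 at D1, 2 at D30 (both higher), and 3 at D180 (2 higher and 1 lower). Of all genes, 2.02, 0.915, and 2.86% were higher at these times, and 1.05, 0.138, and 0.773% were lower. By the adjusted p, 4 of the 25 were higher at D180 and 4 lower (Vtn, Cd93, Cr1l, and Colec12), and at D1 the sign was negative in 18 of the 25. Of all 23940 genes, 1872 were higher and 2154 lower by the adjusted p at D180, and 12194 had a negative sign at D1. C4bpb, the beta chain of the C4b-binding protein, was higher by 1.38 at D30 (adjusted p = 0.00237) and 1.43 at D180 (adjusted p = 0.000298). Ptx3, a pentraxin that binds C1q, was higher by 1.89 (adjusted p = 1.11e-06) and 1.08 (adjusted p = 0.000661) at these times. Vtn, which encodes vitronectin, an inhibitor of the pore, fell by 1.07 on the log2 scale at D180 (adjusted p = 7.54e-09), with all 6 exposed rats below all vehicle rats.

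With slide or scan date as a fixed block, the direction at D1 was kept for all 12 complement genes that had passed the adjusted p, and 0 of them still passed it (7 and 6 at an unadjusted p under 0.05). At D1 these fits rest on 1 vehicle rat. At D30, 8 and 9 of 11 genes still passed, and at D180, 7 and 18 of 20. At D180 the slide block compares the groups through 1 rat of each, and the 7 genes were C1r, C1s, C4b, Cfb, C3, C4bpa, and Serping1. The 2 genes lost with scan date at D180 were C6 and Masp1. C3 and C4bpa passed with either block at D30 and D180.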

How the data were processed

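Lung RNA of 36 rats (6 exposed and 6 vehicle rats at each of 3 times) was measured on 1 single-color array per rat. Per the labels and file headers, the deposited array files hold spot intensity values made by the authors with Agilent Feature Extraction 12.0.1.1. The deposited log2 values of the authors equal log2 intensity scaled to the 75th percentile per array and then centered by probe (r = 0.99997), and were used as an alternative. Array features carried probe annotation of build rn4.

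From there, log2 of the background-corrected intensity was taken. Outlier spots, 232 to 596 on an array, were dropped, spots of a probe were averaged, and 0 spots were saturated. Probes that exceeded the 95th percentile of 308 negative controls on 6 or more arrays (42200 of 45598) were quantile normalized. The brightest probe represented a gene. Adjusted p-values of other probes come from a fit over all probes kept. A linear model of 6 group means was fitted to all 36 arrays with empirical Bayes moderation in limma 3.58.1 (R 4.3.3), with 2-sided tests and Benjamini-Hochberg adjustment within each comparison. A probe counted as well above background where at least 0.5 of its spots were marked so. The model was tested on simulated data that held no slide or scan date effect, so that test could not show how such effects act on the calls. The study's text names a batch correction without its variable, so no batch term entered.

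The member genes and the gene lists were chosen with earlier results of these data known. Values in full were given for members past both thresholds at any time and for C3 and C5, log2 FC for those passing the adjusted p alone, other complement genes where past both thresholds, and second probes where they disagreed. Alternatives changed the intensity column, background correction (normexp, offset 50), normalization, filter, probe summary, samples fitted, array weights, blocks (slide, scan date, replicate number), and fold threshold, and each rat was left out in turn. Promoters were matched by symbol (35 of 35 members matched the RefSeq gene table, 1 by an older symbol, and 23 had a promoter) and scanned with Python 3.11.15. The number of arrays limits the precision of each value.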

Additional observations from a re-analysis of the deposited data

Results flagged for a closer look

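In 10 groups of 6 rats, 1 rat lay far from the other 5 by Dixon's criterion, which chance exceeds in about 1 of 20 groups; 96 groups of 16 genes were examined. In vehicle rats these were C2 at D30 (10.23, the others 11.16 to 11.63), Cfb at D30 (13.30, the others 13.79 to 13.94), Serping1 at D180 (14.31, the others 14.07 to 14.15), and C5 at D1 (6.22, the others 9.21 to 10.43). In exposed rats they were C3 at D1 (14.42, the others 14.87 to 15.09), C6 at D30 (9.06, the others 9.61 to 9.91), and C8b at D180 (5.08, the others 3.91 to 4.26). For Vsig4 they were 8.54 among exposed rats at D1 (the others 4.21 to 5.69), 5.33 among vehicle rats at D30 (the others 8.51 to 10.14), and 6.13 among vehicle rats at D180 (the others 8.90 to 9.96).

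The change differed between time points, by the interaction term in limma, for 18 pairs of a gene and an interval. From D1 to D30 the log2 FC differed by 0.87 for Cfb, 0.96 for C3, 1.52 for C6, 0.52 for Serping1, and 3.86 for Vsig4. From D30 to D180 it differed by 1.05 for C1s and 0.59 for Serping1. From D1 to D180 it differed by 0.98 for C1s, 1.30 for C2, 1.12 for C4a, 1.14 for C4b, 1.47 for Cfb, 0.75 for C3, -0.63 for C7, 1.73 for Cfi, 1.11 for Serping1, 0.92 for Itgb2, and 3.56 for Vsig4. With scan date as a fixed block, 0, 0, and 2 complement genes differed over these intervals, and at D1 that block rests on 1 vehicle rat.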

How the results depend on the processing

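Of the counts of complement genes past both thresholds, the 5 at D1 became 9 at a 1.5-fold threshold, 3 with median intensity, 3 with normexp, and 0 with slide or scan date as a fixed block, and 4 to 7 with 1 rat left out. The 4 at D30 became 10 at 1.5-fold and 4 to 5 with 1 rat left out, and the 13 at D180 became 20 at 1.5-fold, 6 with the slide block, and 10 to 13 with 1 rat left out. By the adjusted p alone, the 12 at D1 became 0 with either fixed block, 6 with scan date as a random block, and 9 to 12 with 1 rat left out, the 11 at D30 stayed between 10 and 12 with 1 rat left out, and the 20 at D180 became 8 with the slide block and 19 to 21. The 5 genes that differed between D1 and D30 became 2 with the deposited log2 values or when scaled to the 75th percentile, 0 with either fixed block, 1 with scan date as a random block, and 4 to 6 with 1 rat left out. The 2 that differed between D30 and D180 became 4 with the filter on spots well above background, 1 with slide fixed, 0 with scan date fixed, 1 with either random block, 9 with array weights, and 0 to 5 with 1 rat left out. That count was 0 without vehicle D30 rat 5 or 6, DQ-12 D30 rat 3, or DQ-12 D180 rat 2, and 5 without vehicle D30 rat 3, DQ-12 D30 rat 5, or DQ-12 D180 rat 3. The 11 that differed between D1 and D180 became 2 with either fixed block, 7 with either random block, and 9 to 11 with 1 rat left out. Masp1 at D180 turned to 0.37 with the slide block and did not pass the test. The D180 counts with the slide block include C8a, which was not called at D180 in the main fit. Its log2 FC with that block was 2.89, through 1 rat of each group, and its probe was well above background on 1 array. With a replicate block the counts were 5, 4, and 13 past both thresholds and 12, 11, and 21 by the adjusted p, Itgax at D180 being added (adjusted p = 0.038), and not every pair of same-numbered rats deviated together, so the numbers were not taken as pairs. With 75th percentile scaling, 337 genes of all tested were higher and 578 lower at D1, against 484 and 252, and the median of all genes was -0.09 in place of -0.01. With median intensity these D1 counts of all genes were 218 and 52, and with normexp 178 and 36. Either fixed block also lowered both D1 counts of all genes. At D180 the slide block left fewer genes of all tested as higher and more as lower. The share of all genes at 1.5-fold is not given here. The causes of these changes were not tested.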
